A study of Mus musculus with 8 samples.

Results

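Interleukins and gp130 cytokines are signals that dermal fibroblasts send to, and receive from, immune cells and keratinocytes. The group described here comprises 10 named genes: the gp130 cytokines Il6, Il11 and Lif, their shared receptor subunit Il6st (gp130), the interleukins Il15, Il18 and Il33, the related cytokine Tslp, and the receptors Il1r1 and Il1rl1. Members were the probe sets annotated to 1 of these symbols alone, and a gene's value was that of its probe set with the highest mean over the arrays. This gave 9 measured genes with 13 probe sets, of 17097 genes in all. No probe set carried the symbol or gene ID of Il1rl1, the receptor of IL-33, so it was not analysed here.

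RNA was taken from dermal fibroblasts of 4 young mice (2 months) and 4 old mice (18 months), 1 Affymetrix array per animal. The cells had been sorted for Pdgfra and CD34 and against CD45, CD117, CD24, CD31 and EpCam, from collagenase-digested skin without its subdermis. Strain, sex and genotype are not given in the sources used here, and no treatment is named for either age. For collection 1 young and 1 old animal were killed on each day, but the specimen numbers are not tied to days in the sources used here. Transcripts of Cd24a, against whose product the cells were sorted, were nevertheless above background in all 8 arrays. The comparison asks how these transcripts differ between old and young fibroblasts.

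Cytokines of the IL-6 type bind a receptor chain of their own and then gp130, which activates JAK kinases and the factor STAT3, while SOCS proteins brake the response. IL-18 and IL-33 belong to the IL-1 family, whose receptors pair with an accessory chain and signal through MyD88 and NF-kB. IL-15 is usually presented on the cell that makes it by its own receptor alpha chain, and TSLP uses the chain encoded by Crlf2 together with the IL-7 receptor. In skin, fibroblasts are a known source of IL-6 and LIF, and keratinocytes of IL-18, IL-33 and TSLP.

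Il15, Il18 and Il1r1 were higher in old fibroblasts, with no overlap between the ages, and no member was lower. Of the 9 measured members 3 rose and 6 did not pass the threshold, an adjusted p of 0.05 by limma over all 17097 genes. Over all genes 9.87% were called higher and 7.66% lower. At an unadjusted p under 0.05, limma gave 4 members higher, against 16.6% of all genes, and 0 lower, against 13.1%. The median difference of the members was 0.26 on the log2 scale, and that of all genes 0.01. These 9 genes were chosen with earlier results of the same arrays known, so their count is a description of them.

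**Figure D1:**
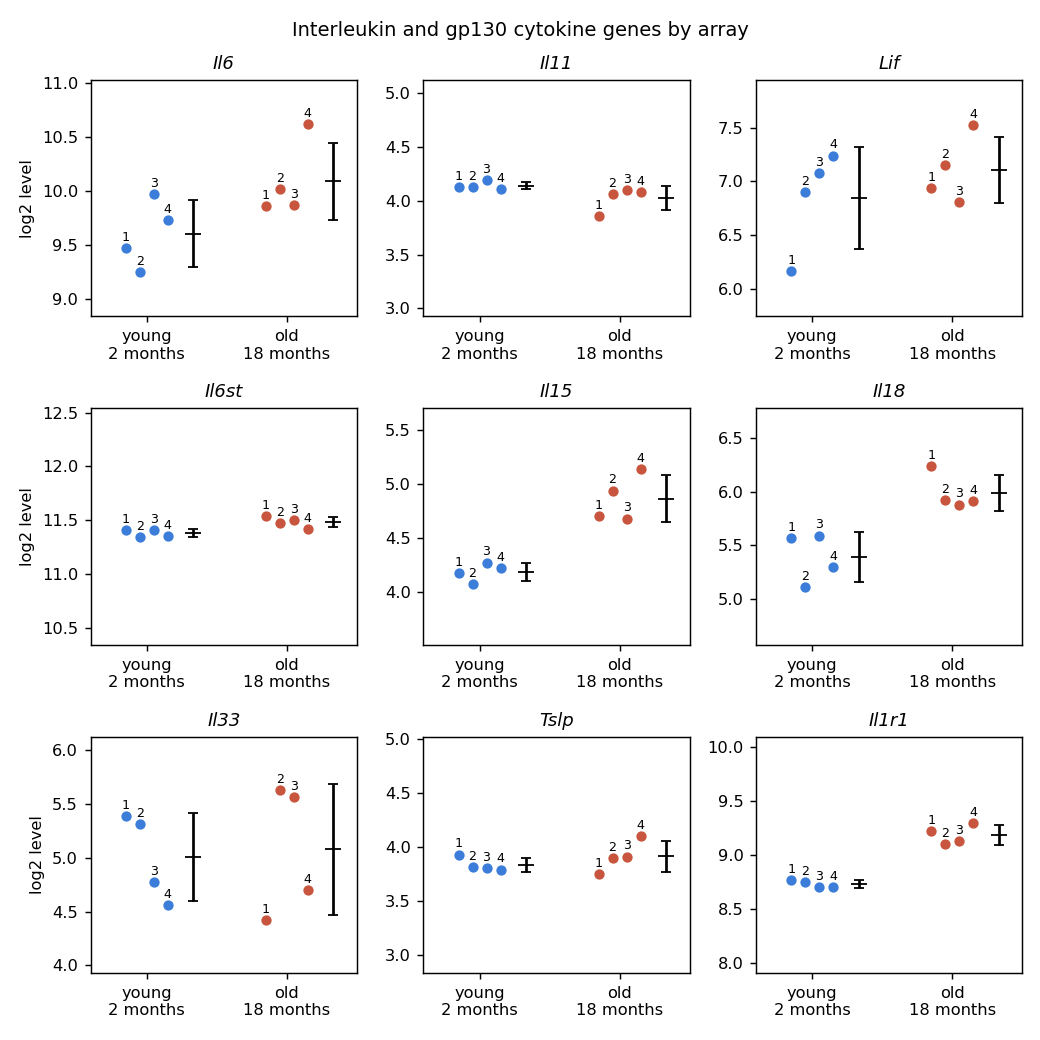
Log2 level (vertical axis, each panel 2.2 log2 units high) of the 9 measured members in 4 young and 4 old mice. Points are single arrays numbered by specimen, and bars give the mean and SD of each age; Il15, Il18 and Il1r1 separate the ages by 0.68, 0.60 and 0.46, and Il33 spreads over both ages.

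The lowest adjusted p among the members was that of Il1r1, the signalling receptor of IL-1. Its level was 8.77, 8.75, 8.70 and 8.70 in young replicates 1 to 4, and 9.22, 9.10, 9.13 and 9.30 in old replicates 1 to 4. The lowest old value therefore lay 0.33 above the highest young one. Group means were 8.73 ± 0.04 and 9.19 ± 0.09 (SD, n = 4 each). Their log2 difference was 0.46 ± 0.06 (SE; 1.37-fold, limma adjusted p = 0.00107). Its spread within either age was small against this difference.

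Il15, a survival factor for lymphocytes, stood at 4.17, 4.07, 4.27 and 4.22 in young replicates 1 to 4 and at 4.70, 4.94, 4.68 and 5.14 in old replicates 1 to 4. No old value reached down to a young one. The log2 difference was 0.68 ± 0.10 (SE; 1.60-fold, limma adjusted p = 0.00184), between means of 4.18 ± 0.09 and 4.87 ± 0.22 (SD, n = 4 each). The transcript was dim on this array. A list of 7 Y-linked, liver and pancreas genes, taken as a guide to background, ranged from 3.51 to 4.78 over the 8 arrays, and all 4 young and 2 of the old Il15 values lay within that range. Y-linked genes are such a guide only in females, and sex is not given here. They read 3.51 to 4.39, and the top of the range, 4.78, was a value of Ins2. Summaries so near to background compress differences.

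Il18, an IL-1 family cytokine that is released after cleavage by caspase-1, read 5.57, 5.11, 5.59 and 5.30 in young replicates 1 to 4. In old replicates 1 to 4 it read 6.24, 5.92, 5.88 and 5.91, above every young array. The difference was 0.60 ± 0.12 on the log2 scale (SE; 1.51-fold, limma adjusted p = 0.00861). Old replicate 1 was the highest, and the other old arrays lay within 0.04 of each other.

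Il6, the founding member of the gp130 cytokines, had a higher mean in old fibroblasts but did not pass the threshold. Young replicates 1 to 4 gave 9.47, 9.25, 9.97 and 9.73, and old replicates 1 to 4 gave 9.86, 10.02, 9.87 and 10.62. Young replicate 3 lay above old replicates 1 and 3, so the ages overlapped. The difference was 0.49 ± 0.19 (SE; 95% interval 0.06 to 0.92, limma adjusted p = 0.117), and 0.31 without old replicate 4 (adjusted p = 0.229, within 0.056 to 0.813 over its alternatives). The interval reaches to nearly a doubling of the level, so these arrays do not show that Il6 stayed the same.

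Il6 varied with other genes of the same arrays. Its order of arrays was 2, 1, 4, 3 within the young animals and 1, 3, 2, 4 within the old animals. This was the order of the mean level of 13 dissociation stress genes, most of them immediate early genes. Enzymatic digestion of tissue is known to induce such genes. The list shares Socs3 and Junb with the STAT3 target genes described below. A match of order in both ages was found for 52 of the 17097 genes, or 0.304%. Every measured member was compared with the list in this way, and Il6 was singled out for its match. Neighbours in the old order lay close together. Il6 read 9.86 and 9.87 in old replicates 1 and 3, and the stress mean 11.6754 and 11.6815 in old replicates 3 and 2. With that mean as a covariate, chosen after seeing the data, the Il6 difference was 0.37 ± 0.13 (SE; adjusted p = 0.0778). None of the 13 stress genes was called with age by limma (1 higher and 1 lower at an unadjusted p under 0.05), and their means per array overlapped, at 11.53 to 11.72 in young and 11.61 to 11.71 in old. With the mean of 12 keratinocyte markers as the covariate instead, the Il6 difference was 0.08 ± 0.15 (adjusted p = 0.813). The part of either in the Il6 level was not tested further.

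**Figure D2:**
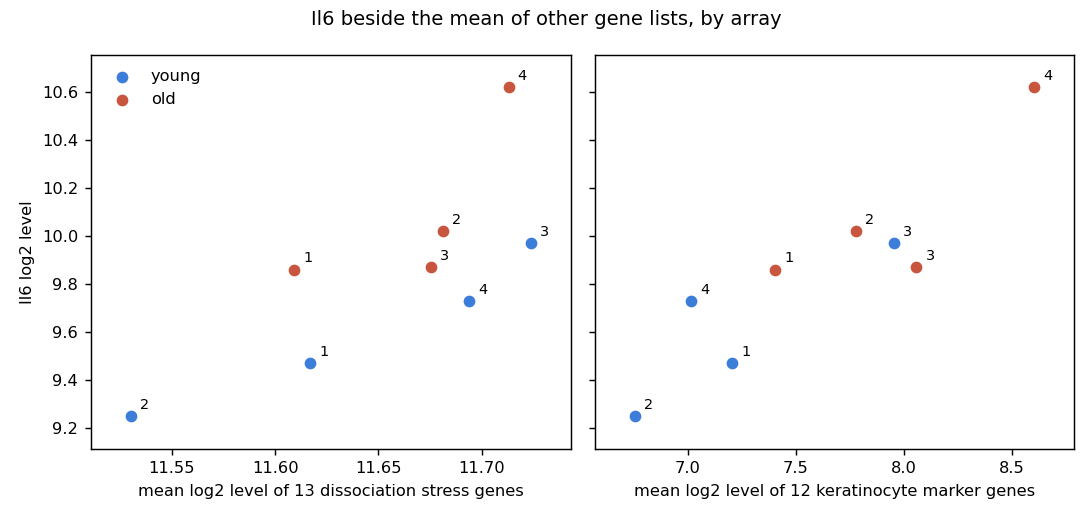
Il6 log2 level (vertical) against the mean log2 level of 13 dissociation stress genes (left) and of 12 keratinocyte markers (right), 1 point per array, numbered by specimen and coloured by age. Within each age the arrays have the same order on both axes of the left panel; old replicate 4 has the highest Il6 (10.62) and the highest keratinocyte mean (8.60).

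Lif, a gp130 cytokine that fibroblasts release on stimulation, did not separate the ages. Its values were 6.17, 6.90, 7.08 and 7.24 in young replicates 1 to 4 and 6.94, 7.15, 6.81 and 7.52 in old replicates 1 to 4. Young replicate 1 was the lowest of all and old replicate 4 the highest, with the others interleaved. The difference was 0.26 ± 0.23 (SE; 95% interval -0.25 to 0.76, limma adjusted p = 0.505). Of its other probe sets, one with a clear signal gave 0.16 ± 0.26 (SE) and the other lay near background at 3.74 to 3.90.

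Il6st, the shared gp130 chain, was bright and varied little between arrays. It read 11.41, 11.34, 11.41 and 11.35 in young replicates 1 to 4 and 11.54, 11.47, 11.50 and 11.42 in old replicates 1 to 4. All old values lay above all young values, yet by only 0.01 at the closest point, and the difference of 0.11 ± 0.06 did not pass (SE; 95% interval -0.02 to 0.23, limma adjusted p = 0.25). Its other probe sets differed by 0.06 and 0.15. In both of them the ages overlapped, and neither was called.

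Il11, a gp130 cytokine linked to fibrosis, and Tslp, an alarmin of epithelia, stayed in the background range in all 8 arrays. Il11 ranged from 4.11 to 4.19 in young and from 3.86 to 4.10 in old, a difference of -0.12 ± 0.07 (SE; limma adjusted p = 0.299). Its old values all lay below its young values, as did those of 9.66% of all genes, while 4 members lay wholly above, against 11.7% of all genes. Tslp ranged from 3.79 to 3.93 in young and from 3.75 to 4.10 in old, with a difference of 0.08 ± 0.08 (SE; adjusted p = 0.55). Neither difference passed, at levels where the summaries compress differences.

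Il33, a nuclear alarmin of the IL-1 family, varied more between animals of one age than between the ages. Young replicates 1 to 4 gave 5.39, 5.31, 4.77 and 4.56, and old replicates 1 to 4 gave 4.42, 5.63, 5.56 and 4.70. Each age held both high and low animals. The difference was 0.07 ± 0.29 (SE; 95% interval -0.58 to 0.72, limma adjusted p = 0.906), and leaving out single arrays turned its sign. It was 0.44 ± 0.25 with array weights (adjusted p = 0.267) and 1.12 ± 0.44 with a background index of the arrays as a covariate (adjusted p = 0.32), the latter outside that interval. The lower values of either age, 2 arrays each, lay within the background range.

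The regulatory stretches before the start sites are shown for the called members that have an entry, Il18 and Il1r1, and for Il6 and Lif, the gp130 cytokines with a clear signal. Promoter windows were found in a RefSeq table of build GRCm38.p6 for 8 of the 10 members, and the 250 bases before the start are printed 5′ to 3′ on the gene's strand. All 5 windows below are on the plus strand: Il6 at chr5:30012864-30013113, Lif at chr11:4257318-4257567, Il18 at chr9:50554450-50554699, and the upstream and downstream starts of Il1r1 at chr1:40224830-40225079 and chr1:40266336-40266585. Capitals mark matches, on either strand, to 7 patterns: NF-kB, AP-1 (TGANTCA), C/EBP (TTGNNCAA), STAT (TTCNNNGAA), the interferon element ISRE, CRE (TGACGTCA) and a TATA box (TATAAA).

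Il6: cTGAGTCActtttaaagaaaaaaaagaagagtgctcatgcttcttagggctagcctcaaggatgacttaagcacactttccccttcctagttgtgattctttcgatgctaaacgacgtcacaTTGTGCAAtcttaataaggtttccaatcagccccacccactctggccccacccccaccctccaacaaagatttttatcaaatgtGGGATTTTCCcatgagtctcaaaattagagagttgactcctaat

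Lif: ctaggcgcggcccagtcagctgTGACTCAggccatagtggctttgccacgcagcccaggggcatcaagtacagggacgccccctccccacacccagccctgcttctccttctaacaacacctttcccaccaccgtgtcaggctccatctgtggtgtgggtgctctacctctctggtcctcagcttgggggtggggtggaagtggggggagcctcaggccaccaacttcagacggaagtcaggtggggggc

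Il18: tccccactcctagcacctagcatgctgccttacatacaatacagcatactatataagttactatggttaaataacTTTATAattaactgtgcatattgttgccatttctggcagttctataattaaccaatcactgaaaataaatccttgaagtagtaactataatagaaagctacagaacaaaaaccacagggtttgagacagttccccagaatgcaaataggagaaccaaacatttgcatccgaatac

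Il1r1 upstream start: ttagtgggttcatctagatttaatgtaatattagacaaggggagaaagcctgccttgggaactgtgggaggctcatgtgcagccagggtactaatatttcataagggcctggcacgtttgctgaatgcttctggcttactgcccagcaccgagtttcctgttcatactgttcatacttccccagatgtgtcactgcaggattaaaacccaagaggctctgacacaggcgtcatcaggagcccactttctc

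Il1r1 downstream start: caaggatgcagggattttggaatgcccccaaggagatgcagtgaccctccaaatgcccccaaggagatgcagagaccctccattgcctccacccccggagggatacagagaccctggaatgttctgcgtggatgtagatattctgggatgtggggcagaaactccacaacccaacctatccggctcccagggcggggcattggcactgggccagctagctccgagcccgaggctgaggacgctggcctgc

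The Il6 window held 3 matches, which do not overlap each other. They were AP-1 at -249, C/EBP at -128 and NF-kB at -44, counted from the first base before the start as -1 to the first base of the match. Over 32851 windows of the same length, 6.75% held the AP-1 pattern, 5.65% the C/EBP pattern and 1.21% the NF-kB pattern. Lif held an AP-1 match at -228, and Il18 a TATA match on the opposite strand at -175, a pattern found in 12.4% of windows. Neither Il1r1 window held any of the 7 patterns, of which STAT was found in 7.02% of windows, ISRE in 2.98% and CRE in 1.55%. A match describes letters only, and its absence says nothing of the factor.

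Among the ligand-specific receptor chains of the gp130 family, Il31ra included, 3 of 6 measured rose with age and 3 were not called. Over all genes 9.87% were called higher. Osmr, the chain for oncostatin M, led, with 8.65, 8.67, 8.93 and 9.01 in young replicates 1 to 4 against 10.07, 9.96, 9.54 and 10.31 in old replicates 1 to 4. Every old animal stood at least 0.53 above every young one. The difference was 1.16 ± 0.15 on the log2 scale (SE; 2.23-fold, limma adjusted p = 0.000835). Lifr, the chain for LIF, rose by 0.53 ± 0.11 (SE; adjusted p = 0.00782), from 6.81 to 7.24 in young to 7.35 to 7.63 in old. Il6ra, the chain that binds IL-6, rose by 0.38 ± 0.11 (SE; adjusted p = 0.0351), and its ages did not overlap. The Il6ra call was lost without any of 6 arrays (young 1, 2 or 4, old 1, 2 or 3; adjusted p up to 0.0888) after median centring (0.0744) and with the keratinocyte covariate (0.0963), within a range over its alternatives to 0.955.

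Single genes among the other ligands and the signalling chain also passed. Of 4 other cytokine genes of the gp130 family measured, Il31 and the subunit gene Ebi3 included, Ctf1, cardiotrophin, rose by 0.41 ± 0.08 (SE; limma adjusted p = 0.00866). All 4 young and 3 of the old Ctf1 values lay within the background range, and with the keratinocyte covariate it was not called (0.34, adjusted p = 0.0944). Among 17 kinases, STAT factors and brakes 4 rose and 1 fell, against 9.87% and 7.66% of all genes. Ptpn11, a phosphatase that carries gp130 signals to the Ras pathway, rose by 0.54. The kinase Jak2 rose by 0.42, the phosphatase Ptpn1 by 0.32 and Stat5a, picked out once its value was known, by 0.24. The Stat5a call was lost in 14 of 19 alternatives. The brake Socs1 fell by 0.58 (adjusted p = 0.0107), from 5.31 to 5.85 in young to 4.81 to 5.20 in old. With its most variable probe set Ptpn1 differed by 0.14 and was not called (adjusted p = 0.547, within a range over its alternatives to 0.774). Stat3 itself and its feedback target Socs3, both picked out once their values were known, did not pass, with differences of 0.28 (adjusted p = 0.0686) and 0.11 (adjusted p = 0.723).

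Of 18 STAT3 target genes 2 rose and 16 did not pass, while 9.87% of all genes were called higher. Lbp, a carrier of bacterial lipopolysaccharide, averaged 9.93 ± 0.22 in young and 11.01 ± 0.19 in old animals (SD, n = 4 each). It rose by 1.09 ± 0.13 on the log2 scale (SE; 2.12-fold, limma adjusted p = 0.000411). Mcl1, a survival factor, rose by 0.27 (adjusted p = 0.0198), a call lost without young replicate 2 or 4 or old replicate 2 (adjusted p up to 0.0567) and within a range over its alternatives to 0.609. The median difference of this list was 0.11, against 0.01 for all genes.

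**Figure D3:**
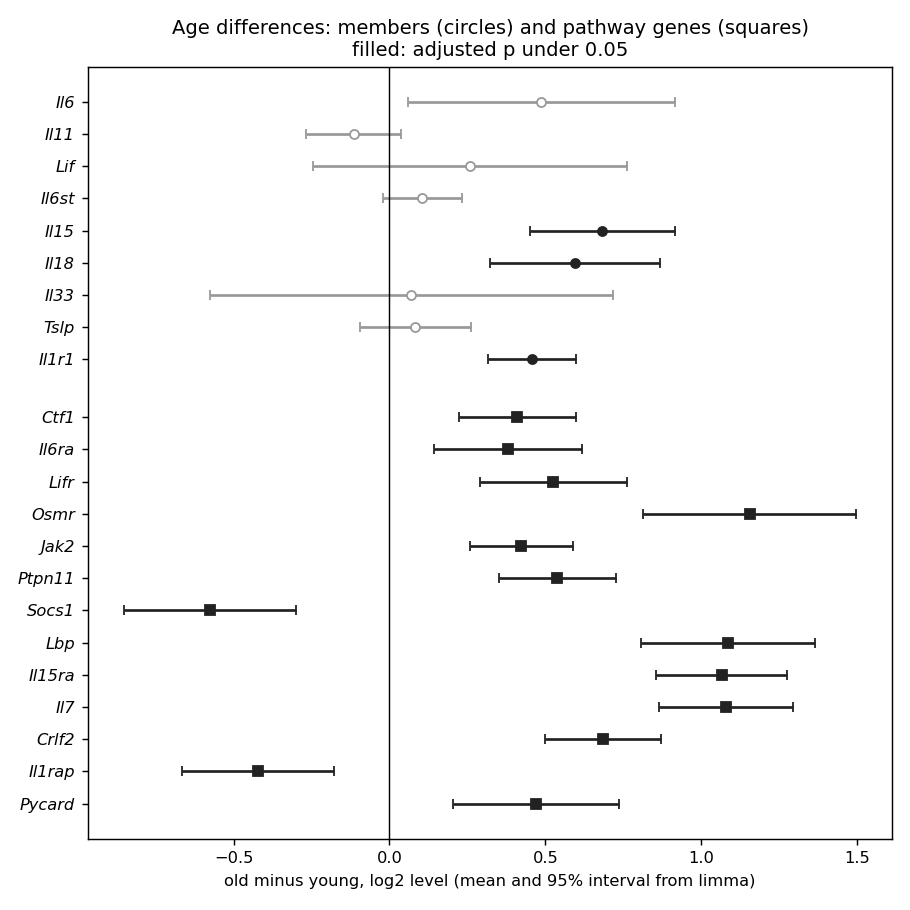
Old minus young on the log2 scale (horizontal axis) with 95% intervals from limma, for the 9 members (circles) and 13 of the pathway genes that passed the test (squares). Ptpn1, Stat5a, Mcl1, Irak3 and Traf6 also passed and are not drawn. Filled symbols mark an adjusted p under 0.05; 3 circles are filled, and of the squares only Socs1 (-0.58) and Il1rap (-0.42) lie below 0.

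Of 4 measured receptors and partners of IL-15, IL-7 and TSLP 3 rose, against 9.87% of all genes. Il15ra, which presents IL-15, stood at 7.59, 7.77, 7.51 and 7.92 in young replicates 1 to 4 and at 8.78, 8.78, 8.64 and 8.85 in old replicates 1 to 4. This is a difference of 1.07 ± 0.09 (SE; 2.09-fold, limma adjusted p = 9.4e-05), and the ages were far apart. Il7, a lymphocyte growth factor, was within the background range in young arrays, at 3.83 to 4.00, and above it in old arrays, at 4.80 to 5.25. It rose, with a measured difference of 1.08 ± 0.10 (SE; adjusted p = 9.9e-05), or 0.71 as the mean over its probe sets. With the young values at background the size of that rise was not measured exactly. Crlf2, the TSLP receptor chain, rose by 0.69 ± 0.08 (SE; adjusted p = 0.000567), from 7.59 to 7.80 in young to 8.19 to 8.53 in old, while Tslp itself gave no signal above background. Il2rb, the fourth, did not pass (0.12, adjusted p = 0.469) and was picked out once its value was known.

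**Figure D4:**
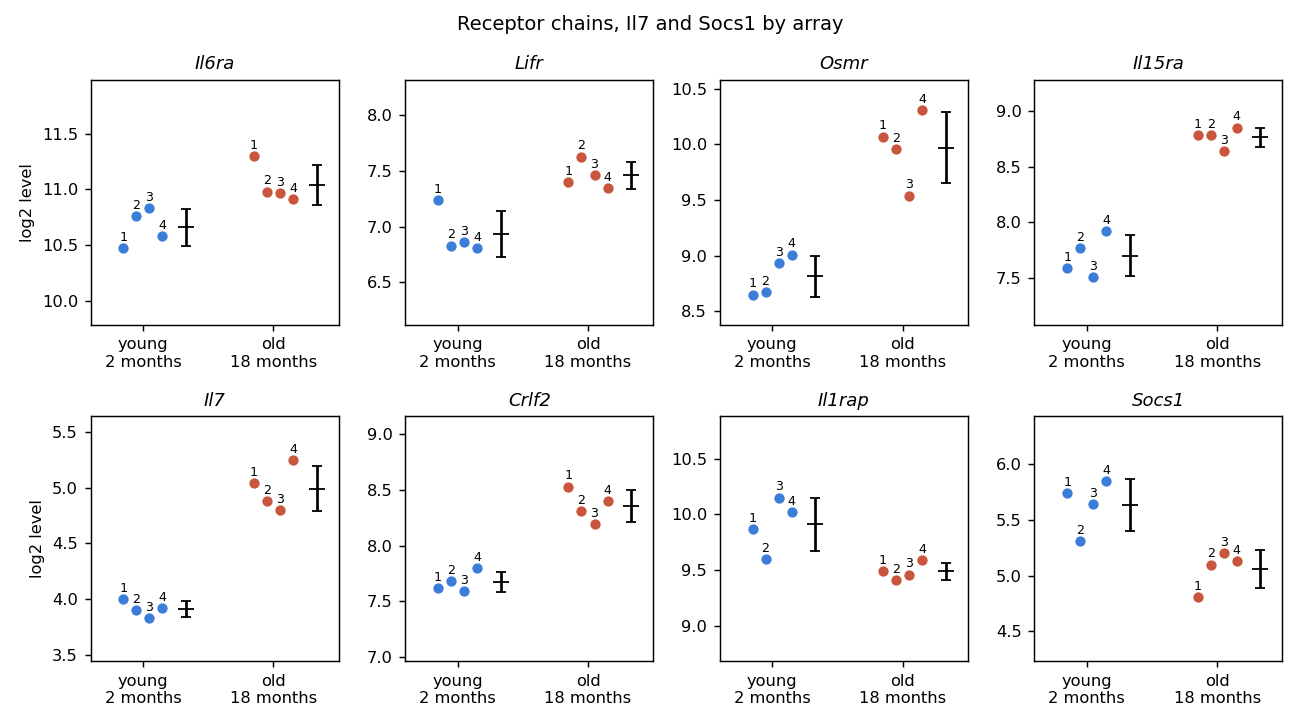
Log2 level (vertical axis, each panel 2.2 log2 units high) of 8 pathway genes in 4 young and 4 old mice, with points for arrays numbered by specimen and bars for mean and SD. Old values lie wholly above young values for Il6ra, Lifr, Osmr, Il15ra, Il7 and Crlf2, and wholly below them for Il1rap and Socs1.

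In the IL-1 family, Il1r1 rose and its accessory chain Il1rap fell. Il1rap read 9.87, 9.60, 10.15 and 10.02 in young replicates 1 to 4 and 9.49, 9.41, 9.46 and 9.59 in old replicates 1 to 4, a narrow gap of 0.01 between the ages. The difference was -0.42 ± 0.11 (SE; limma adjusted p = 0.0247). That call was lost without young replicate 3 or 4 or old replicate 2 or 3 (adjusted p up to 0.068), within a range over its alternatives to 0.496. Of 14 other receptors and adaptors of the family measured, 2 rose and 1, Il1rap, fell, against 9.87% and 7.66% of all genes. The rises were those of Irak3, a brake on the pathway (0.31, adjusted p = 0.0403), and of Traf6, which passes the signal on (0.21, adjusted p = 0.0308). Neither call held over all 8 arrays left out in turn: it was lost for Irak3 without young 1 or 2 or old 1, 2 or 4 (adjusted p up to 0.104), and for Traf6 without any array but old 1 (up to 0.0824). Both calls were also lost after median centring, after a second quantile normalization and with the stress or the keratinocyte covariate, and over 19 alternatives Irak3 kept its call in 7 and Traf6 in 4.

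None of the other 6 IL-1 family ligands and antagonists measured was called by limma, with 1 higher and 0 lower at an unadjusted p under 0.05. Il1b, the nearest to a call, differed by 0.33 (adjusted p = 0.054) and was called higher in 5 of 19 alternatives (adjusted p from 0.0131 to 0.273). Of 5 genes that form inflammasomes or cleave IL-18, Pycard, an adaptor of caspase-1, rose by 0.47 (adjusted p = 0.0228), a call lost without young 1, 3 or 4 or old 2 or 3 (up to 0.0613), after a second quantile normalization and with the keratinocyte covariate. Casp1 itself, also picked out once its value was known, did not pass (0.27, adjusted p = 0.0786). Nlrp3, picked out likewise, differed by -0.19 (adjusted p = 0.109) and was called lower in 4 of 19 alternatives. Its values, 4.26 to 4.58, lay within the background range. At an unadjusted p under 0.05, limma gave 3 of the 5 genes higher and 1 lower. Among 23 other interleukins and colony stimulating factors, Il1a and Il1b included again, 0 were called by limma, with 2 higher and 1 lower at an unadjusted p under 0.05. Over all pathway lists together, 94 genes were measured beside the members, of which 16 rose, 2 fell and 76 did not pass, against 9.87% higher and 7.66% lower over all genes. With the keratinocyte covariate 9 were called higher and 2 lower, and without old replicate 2 there were 10 and 1. With that covariate the calls of Ctf1, Il6ra, Ptpn1, Stat5a, Mcl1, Irak3, Traf6 and Pycard were lost.

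Genes with a profile nearest to each called member were found by the root mean square difference over the 8 arrays, after each profile was centred on its own mean. For Il15 these were Birc2 (0.06) and Cep170b (0.08), for Il18 Cc2d2a (0.07) and Pon2 (0.09), and for Il1r1 Rfwd3 (0.03) and Dnmt1 (0.05). They share the arrays and the age contrast, and such neighbours are found for any gene among 17097.

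Of the genes the cells were sorted for, Cd34 averaged 11.73 in young and 11.68 in old and Pdgfra 8.36 and 8.52. Dcn, a fibroblast proteoglycan, stood at 12.79 and 12.70. Of 9 fibroblast genes Col3a1 alone was called (-0.28). At an unadjusted p under 0.05, limma gave 0 of the 9 higher and 4 lower, against 13.1% of all genes lower. Over 19 alternatives up to 3 were called lower, and 4 alternatives gave more than the main fit. Of the genes sorted against, Ptprc (CD45) and Kit (CD117), the latter at 3.57 to 3.75, lay within the background range in every array. Ptprc read 3.64 to 3.76 in young and 3.80 to 3.99 in old, without overlap, and was not called (0.17, limma adjusted p = 0.101). Epcam ranged from 4.19 to 4.32 in young and from 4.43 to 4.99 in old, and Pecam1 (CD31) from 4.83 to 5.30 and from 4.74 to 5.81. The ages did not overlap for Epcam, which was not called (0.34, limma adjusted p = 0.0746). Of these 5 genes limma gave 2 higher and 1 lower at an unadjusted p under 0.05. Up to 1 was called higher, in 3 of 19 alternatives. Cd24a went against the gate, at 6.83 to 7.58 in young and 6.21 to 7.12 in old. It differed by -0.67 and was not called (adjusted p = 0.0515), but was called lower in 10 of 19 alternatives. Keratinocyte RNA was present: Krt5 averaged 9.72 in young and 10.76 in old, a call kept in 10 of 19 alternatives. Of 12 markers 3 rose, led by Krt14 (1.65), and 2 fell. Those that fell, picked out once their values were known, were Trp63 (-0.405, limma adjusted p = 0.0237) and Lor (-0.60, limma adjusted p = 0.0201). The mean level of these markers ranged from 6.75 to 7.95 in young and from 7.40 to 8.60 in old. Fewer cells of a type and less RNA per cell cannot be told apart in such samples. With the keratinocyte mean as a covariate the differences were 0.52 for Il15 (adjusted p = 0.0261), 0.55 for Il18 (adjusted p = 0.0782) and 0.44 for Il1r1 (adjusted p = 0.0166), so that Il18 was no longer called.

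Macrophage and dendritic markers had means per array of 5.08 to 5.18 in young and 5.15 to 5.19 in old, with 2 of 13 higher and 1 lower. The lower one was Csf1r (-1.92), the brightest of them. The 2 higher ones, named once their values were known, were Lyz2 (1.08) and Tyrobp (0.665). Of 8 endothelial markers 2 rose and 1 fell, with means of 5.18 to 5.37 in young and 5.36 to 5.77 in old, Kdr the brightest and Tek the largest change (1.73). No marker was called by limma among 8 of mast cells (Cma1 the brightest), 10 of T and innate lymphoid cells (Thy1, also on the fibroblast list), 6 of pericytes and smooth muscle (Acta2) or 3 of adipocytes (Plin4). At an unadjusted p under 0.05 these 4 lists held 3 higher and 0 lower. The part of these cells in the members' differences was not tested.

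Array background differed with age in controls of high GC content, while other measures of it overlapped. Non-specific controls of lower GC content averaged 3.352 to 3.384 in young arrays and 3.318 to 3.375 in old arrays. The 7 background genes had means per array of 4.00 to 4.07 in young and 3.87 to 4.09 in old. An index over 11 non-specific controls of high GC content lay between 5.76 and 6.02 in young arrays and between 5.10 and 5.63 in old arrays, a difference of -0.51 (exact permutation test, two-sided, p = 0.0286, the smallest that 4 against 4 arrays allow). With that index as a covariate, the differences were 0.62 for Il15, 0.52 for Il18 and 0.40 for Il1r1, but none of them passed. Their adjusted p-values were 0.244, 0.447 and 0.211, against lowest values over the alternatives of 0.000679, 0.00345 and 0.000559. By limma no member and none of the 94 pathway genes was called with the covariate (3 members and 12 pathway genes higher, 0 and 1 lower, at an unadjusted p under 0.05), and 67 genes were called higher and 96 lower in all. Since the index does not overlap between the ages, its part and that of age cannot be told apart here.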

How the data were processed

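Per the submitters' processing notes, the authors used RMA and the R package affy, versions not given in the sources used here. The deposited table holds log2 summaries of 45141 probe sets, which that method corrects for background, makes alike in distribution between arrays and condenses by median polish, so a shift shared by most transcripts is hidden. Gene symbols came from the platform annotation: 28898 probe sets had 1 symbol, 551 several and 15692 none, and the last 2 classes named no gene.

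Old and young arrays were compared over 17097 genes in a two-sided limma fit without covariates (lmFit, eBayes; limma 3.58.1, R 4.3.3). P-values were adjusted after Benjamini and Hochberg across these genes, and 0.05 was the limit for a call. The fit was tested on simulated data. The members and gene lists were chosen with earlier results of these data known. Named genes were all members, up to 4 called genes of largest difference per pathway list, and the brightest and most changed gene of each check list. The genes of the sort gate and of the nearest profiles were named too. Other genes were named once their values were known. The number of arrays, 1 per animal, limits the precision. Alternatives covered scaling, dim genes, probe set choice, moderation settings, array weights, a replicate block, a background covariate, thresholds and each array left out; the stress and keratinocyte covariates and the fit of every probe set were added after seeing the data. Figures used matplotlib 3.10.9 in Python 3.11.15.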

Additional observations from a re-analysis of the deposited data

Results flagged for a closer look

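In 3 of 18 groups of 4 arrays, 1 per member and age, 1 array stood apart from the rest by more than the 95% critical share of the group's range (Dixon's test); chance gives about 1 in 20 groups. Il18 was 6.24 in old replicate 1, against 5.88 to 5.92 in the other old arrays. Il11 was 3.86 in the same array, against 4.06 to 4.10, and Tslp was 3.93 in young replicate 1, against 3.79 to 3.81. Old replicate 1 had the lowest background index (5.10) and young replicate 1 the highest (6.02). Without old replicate 1 the Il18 difference was 0.51 (limma adjusted p = 0.0166), within 0.00345 to 0.447 over its alternatives.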

How the results depend on the processing

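The calls of Il15, Il18 and Il1r1 were kept under every scaling, filter, probe set, moderation, weighting and stress covariate setting run, and when any single array was left out, with differences of 0.59 to 0.74, 0.50 to 0.66 and 0.42 to 0.49 over the arrays left out. With the background covariate they were 0.62, 0.52 and 0.40 and none passed (0 members higher), Il33 was at 1.12 (0.44 with array weights), and Il11 (0.048) and Lif (-0.34) turned sign, as did Dcn (0.052), Cma1 (-0.029) and Ins2 (0.10). With the keratinocyte covariate 2 members were called, Il18 was at 0.55 (adjusted p = 0.0782), Tslp turned to -0.014 and Cma1 to -0.038; Cma1 also turned with array weights (-0.0089). Leaving out single arrays gave Il33 differences of -0.11 to 0.29, Il6 0.31 to 0.61, Il6st 0.09 to 0.13, Il11 -0.14 to -0.06, Lif 0.03 to 0.39, Tslp 0.02 to 0.14, Cma1 -0.052 to 0.12 and Kdr -0.32 to 0.35, and left 3 members called higher and 0 lower each time. Over all genes 1688 were higher and 1310 lower, or 56.3% higher. There were 67 and 96 with the background covariate, 702 and 719 with the keratinocyte covariate, and 771 and 665 at a threshold of 0.01. With single arrays left out there were 1215 to 1709 higher and 983 to 1219 lower, and after a second quantile normalization 1415 and 1716 (45.2% higher). The causes were not tested.

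Specimen numbers are shared by the ages, and 1 animal of each age was collected per day, but no label ties numbers to days, and same-numbered arrays did not all deviate together (correlation over genes 0.29, 0.05, -0.04 and 0.22 for numbers 1 to 4). With the replicate block 3 members were called higher, Il15 by 0.68, Il18 by 0.60 and Il1r1 by 0.46, and 1838 genes were higher and 1268 lower. The block ended the calls of Il6ra (0.38, adjusted p = 0.0526), Irak3 (0.0508) and Traf6 (0.082), and Cd24a (adjusted p = 0.00643) and Acta2 (0.0319) passed with it, as did Il10, Il17d and Myc. The lists of pericytes, stress genes and other interleukins, with no called gene, had up to 2, 1 and 2 called higher in 6, 3 and 10 of 19 alternatives. Signal near background limits Il11, Tslp, Il15, Il7, Ctf1 and, in 2 arrays of each age, Il33.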
